A study of Schizosaccharomyces pombe with 16 samples.

Results

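Described here are genes with which fission yeast takes up and splits the disaccharides sucrose and maltose, and a neighbour of the invertase gene. They are 5 of the 7019 features in the deposited count table, picked by name: *inv1* (SPCC191.11), its neighbour *SPCC191.10*, *agl1* (SPAPB24D3.10c), *mal1* (SPBC1683.07) and *sut1* (SPAC2F3.08). All 5 were found, and all 5 passed the filter on low counts.

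*Schizosaccharomyces pombe* prefers glucose to other sugars. While glucose is plentiful, carbon catabolite repression keeps genes for other carbon sources low, and Scr1, a zinc finger protein related to Mig1 of budding yeast, is a repressor in this system. Inv1 is the secreted invertase, which splits sucrose into glucose and fructose outside the cell. Agl1 and Mal1 are alpha-glucosidases that split maltose, and Sut1 is a plasma membrane symporter that brings sucrose or maltose in with a proton. The protein of *SPCC191.10* is annotated as uncharacterized.

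The RNA-seq data covered 16 cultures, each grown for 4 h at 32 °C in rich medium with 3% glucose and then for 4 h in a second medium. The *scr1* mutants were of 2 kinds, an *scr1*::*ura4*+ disruption (h- ura4-d18 leu1-32 ade6-m216) and an *scr1* deletion (*scr1*::*kanMX6*+) isolated from sporulated diploids, and each was sequenced with 2 replicates in 3% glucose and 2 in 3% sucrose. Wild type (h-) cells had 2 replicates in each of 4 media: 3% glycerol without glucose (glucose-starved), 3% glycerol with 0.1% glucose (glucose-deficient), 3% sucrose and 3% glucose. The strain lists of the labels and of the study differ for some batch B libraries, so only genotype, medium and replicate are used. The study describes replicates as independent biological ones. Cells were washed and then divided among the media.

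Libraries held between 14305848 and 18607823 counts, so that 3 counts, taken as the floor, were worth between 0.161 and 0.21 CPM (counts scaled to a common library size) by library totals. They came in 3 batches. Batch A was unstranded and held replicate 1 of wild type in glucose, sucrose and glucose-deficient medium and of the disruption in both sugars. Batch B was stranded and held replicate 2 of wild type and of the disruption in glucose and sucrose, with glucose-starved replicate 1. Batch C was stranded and held the 4 deletion libraries with glucose-starved and glucose-deficient replicate 2. The *scr1* feature had between 88.8 and 125 CPM in the mutants, against 20.8 to 35.7 CPM in wild type in the same sugars. Counts of a whole feature do not show which part of it was read, so they do not check the mutation.

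CPM is each count divided by the TMM-scaled size of the library, and a change in a gene's share of the RNA cannot be told apart from a change in the total RNA of a cell. Fold changes are on the log2 scale from edgeR's quasi-likelihood test, in 1 fit of all libraries with the batch as a term and the 2 mutants pooled, and a gene was called at an adjusted p-value under 0.05 (Benjamini-Hochberg, over all 6691 features tested) and a log2 fold change of more than 1 in size. Every adjusted p below is from edgeR unless DESeq2 is named.

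Mig1 and related repressors bind GC-rich sites, and the stretches before the 5 genes were searched on both strands for the pattern NNGGNG, with C or G as the first letter, C or T as the second and A or G as the fifth. In the 250 bases before RefSeq's gene start (ASM294v3), *inv1*, *mal1* and *sut1* had 1 match each, and *agl1* and *SPCC191.10* had none. Of 5112 protein-coding genes, 14.6% had a match in that window. In 1000 bases, 50.4% of genes had a match, as did all of the 5 but *SPCC191.10*, and not every match of *agl1* is shown. CCCCTC, a word for the activator Rst2, was absent from all 5 stretches of 1000 bases on both strands and present in 7.51% of all. The stretch before *inv1* stops short of *SPCC191.10*, which the study calls a promoter element of *inv1*. The study reports Rst2 bound there in glucose-starved cells, together with Tup11, a component of the Tup/Ssn6 complex. By its ChIP-seq, Scr1 was bound at *inv1* in glucose and in sucrose. The part of *SPCC191.10* after RefSeq's start was not searched. No match overlapped another. The sequences below set the match of *inv1*, the member that was highest without Scr1, beside matches of *agl1*, *mal1* and *sut1*. None of these 3 was called without Scr1 in the main edgeR fit. Of them, *agl1* missed the call narrowly in glucose (log2 fold change 3.02, edgeR adjusted p = 0.0504), and DESeq2 called it in glucose and in sucrose. Capitals mark the match, the *inv1* stretch ends where the counted feature begins, and the others have 12 bases on either side.
inv1 (chrIII:1723184-1723392, plus strand): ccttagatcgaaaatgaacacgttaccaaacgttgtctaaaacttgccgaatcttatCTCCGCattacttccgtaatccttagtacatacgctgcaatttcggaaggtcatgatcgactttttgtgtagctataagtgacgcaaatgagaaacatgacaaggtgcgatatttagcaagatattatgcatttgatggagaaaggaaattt
agl1, 765 bases before the start (chrI:2971736-2971765, minus strand): tttttgtcctccCCCCACatccgccttagt
agl1, 704 bases before (chrI:2971675-2971704, minus strand): gattgattccatCCCCACgagaaaatcgat
agl1, 453 bases before (chrI:2971424-2971453, minus strand): caaaagtttctcCCCCACttttataaggtt
mal1, 656 bases before (chrII:152243-152272, plus strand): gtatatgttaaaCTCCGCagcaggtgtaat
mal1, 20 bases before (chrII:152879-152908, plus strand): caatgctactagCTCCACtttctcaaacag
sut1, 354 bases before (chrI:3934995-3935024, plus strand): cagaatgcgcccCTGGAGatgtttattgat
sut1, 72 bases before (chrI:3935277-3935306, plus strand): catgacatttacGCGGAGctgggctgatgg

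The match of *inv1*, CTCCGC, begins 193 bases before the start and is GCGGAG read on the other strand. The same word, on one strand or the other, stood before *mal1* and *sut1*. The matches shown for *agl1* were CCCCAC, the other strand of GTGGGG. RefSeq starts *agl1* and *SPCC191.10* at the first codon, and the counted features of all 5 genes begin upstream of RefSeq's gene starts. By position, the matches of *agl1* and *mal1* and the *sut1* match 72 bases before the start lie inside the counted features. The *inv1* match and the *sut1* match 354 bases before lie outside them. For *agl1* and *mal1* the whole stretch searched lies inside the counted feature. No bases before the counted start of these genes were searched. A match is a run of letters and was not tested for binding.

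The invertase gene *inv1* was low in wild type cells with glucose or sucrose and high without Scr1 or without glucose. It lies on chromosome III from 1723393 to 1726164, plus strand, in the coordinates of the count table (ASM294v2). In glucose it had 1834 and 2042 CPM in the deletion and 2388 and 3024 CPM in the disruption, against 26.2 and 4.30 CPM in wild type. In sucrose, the substrate of the enzyme, it had 2406 and 2279 CPM in the deletion and 1976 and 2603 CPM in the disruption, against 23.8 and 10.7 CPM in wild type. Every mutant library was above every wild type library of the same sugar, and the 8 mutant libraries stayed within a narrow band, whatever the sugar and the kind of mutation.

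Without Scr1, *inv1* rose by 7.45 on the log2 scale in glucose (SE 1.0, edgeR adjusted p = 0.00117), a 175-fold difference, and by 7.28 in sucrose (SE 1.0, edgeR adjusted p = 0.00163), a 155-fold difference. Within batch A the log2 difference in glucose was 6.50 and within batch B it was 9.42, and in sucrose these were 6.37 and 7.91. Without wild type glucose replicate 2 the glucose value was 6.32 and without replicate 1 it was 9.42, and without wild type sucrose replicate 1 the sucrose value was 7.99. Wild type varied more than the mutants: *inv1* differed by 6.10-fold between the 2 wild type glucose libraries and by at most 1.32-fold between the 2 libraries of a mutant in 1 medium. By counts per length among 5136 protein-coding genes, *inv1* ranked between 196 and 232 in the mutants, and 4457 and 4909 in wild type in glucose.

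**Figure D1:**
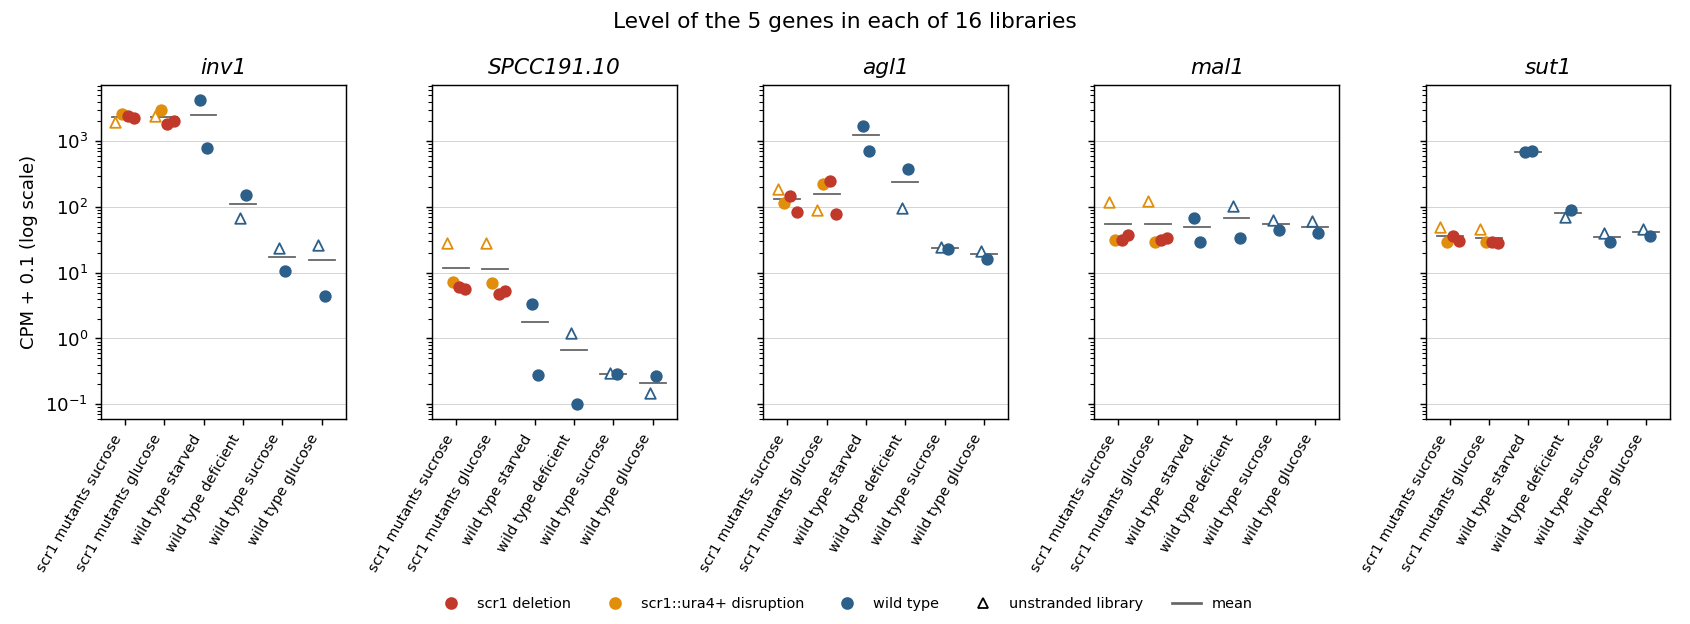
CPM plus 0.1 (log scale) of each of the 5 genes in each of 16 libraries, with the *scr1* mutants on the left of wild type; red points are the deletion, orange the disruption, blue wild type, open triangles unstranded libraries, and lines group means. *inv1* sat between 1834 and 3024 CPM in the 8 mutant libraries and at most at 26.2 CPM in wild type with glucose or sucrose, while *sut1* was high only in the 2 glucose-starved libraries, at 678.7 and 701.4 CPM.

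Loss of glucose raised *inv1* in wild type cells too. It had 4204 and 798.7 CPM in glucose-starved cells and 66.8 and 152.5 CPM in glucose-deficient cells, against 26.2 and 4.30 CPM in glucose. The 3 media did not overlap, but the glucose-starved replicates differed by 5.26-fold. The log2 fold change was 7.53 for glucose-starved against glucose (SE 1.1, edgeR adjusted p = 7.78e-05), 3.11 for glucose-deficient against glucose (SE 0.89, edgeR adjusted p = 0.0328) and 4.43 for glucose-starved against glucose-deficient cells (SE 0.93, edgeR adjusted p = 0.00157). With 1 library left out at a time, the first of these ran from 5.71 (without glucose-starved replicate 1) to 9.28 (without wild type glucose replicate 1), and the last from 2.92 (without glucose-starved replicate 1) to 5.79 (without glucose-deficient replicate 2), all called. The second ran from 1.99 (without glucose-deficient replicate 2) to 5.16 (without wild type glucose replicate 1), and was not always called.

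Mutant cells in glucose thus had *inv1* at 1834 to 3024 CPM, against 798.7 and 4204 CPM in glucose-starved wild type, and these ranges overlapped. The log2 difference of -0.08 (95% interval -1.60 to 1.44, edgeR adjusted p = 0.922) leaves room for a change of either sign. Against glucose-deficient wild type, *inv1* was higher in the mutants by 4.34 (SE 0.85, edgeR adjusted p = 0.0073), and by 3.58 and 5.70 without glucose-deficient replicate 1 and 2. In order of mean CPM, glucose-starved wild type (2501 ± 2408, SD, n = 2) was followed by the mutants in glucose (2322 ± 521, n = 4) and in sucrose (2316 ± 263, n = 4), which all overlapped, then by glucose-deficient wild type (110 ± 60.6, n = 2), which overlapped with no other group, and last by wild type in sucrose (17.3 ± 9.30, n = 2) and in glucose (15.3 ± 15.5, n = 2), which overlapped each other.

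The same band of *inv1* levels came with a rise of its upstream neighbour. *SPCC191.10* lies 995 bases from *inv1* on the same strand (chromosome III, 1721489 to 1722397), and the whole of it is covered on the other strand by the non-coding *SPNCRNA.1223* (1721177 to 1722876). Unstranded libraries cannot separate the pair. In the 6 stranded mutant libraries *SPCC191.10* had 70 and 74 counts in the deletion in glucose, 94 in the disruption in glucose, 91 and 86 in the deletion in sucrose and 101 in the disruption in sucrose, against 3 counts in the stranded wild type library in glucose and 3 in that in sucrose. Each of these mutant libraries stood far above the stranded wild type library of its sugar, which was at the floor. That wild type library shared its batch with the disruption and not with the deletion.

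**Figure D2:**
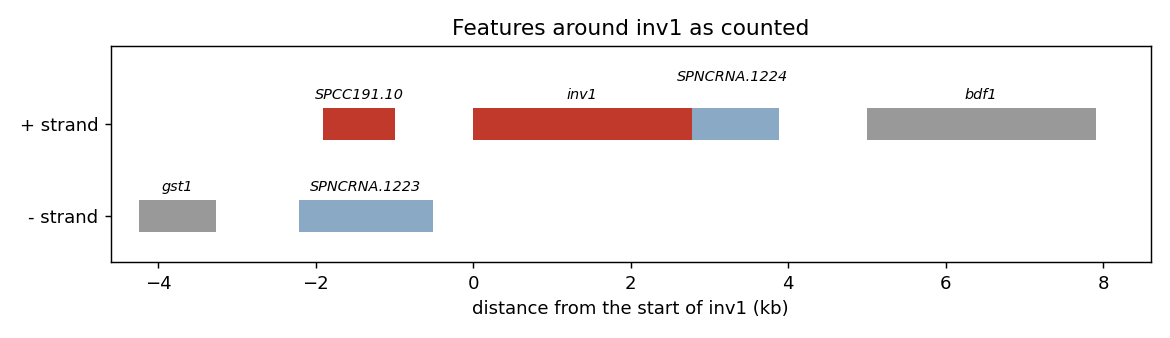
Features around *inv1* as the count table has them, by strand, with distance from the start of *inv1* in kb; red bars are *inv1* and *SPCC191.10*, blue bars non-coding RNAs and grey bars the neighbouring protein-coding genes. *SPNCRNA.1223* (1700 bases) spans all 909 bases of *SPCC191.10* on the opposite strand.

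The antisense RNA was the more abundant of the pair. *SPNCRNA.1223* had between 283 and 409 counts in those 6 mutant libraries, against 3 counts in wild type in glucose and 8 in sucrose. The sense gene took between 17.99% and 20.7% of the counts of the pair in the 6 stranded mutant libraries. Glucose-starved wild type differed: replicate 1 had 48 counts for *SPCC191.10* and 2504 for *SPNCRNA.1223*, a sense share of 1.88% (95% exact binomial interval 1.39 to 2.49), and replicate 2 had 2 and 373 counts, a share of 0.533% (0.0647 to 1.91). These intervals cover counting error only and do not overlap the 14.3 to 25.3% that they span in the mutants. How many of the few sense counts in glucose-starved cells come from reads of the antisense strand was not tested.

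**Figure D3:**
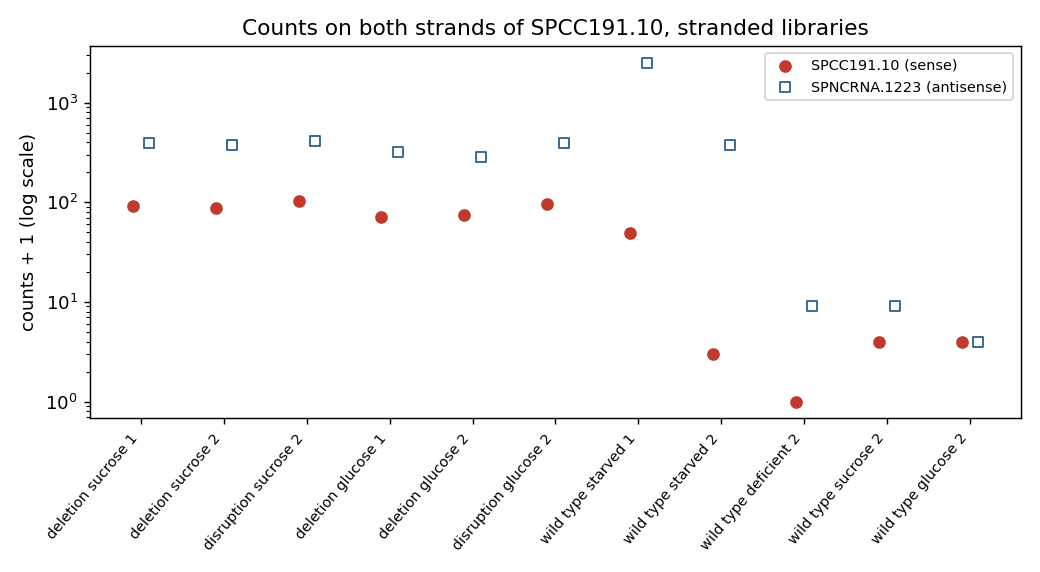
Counts plus 1 (log scale) of *SPCC191.10* (red, sense) and of the overlapping *SPNCRNA.1223* (blue squares, antisense) in each of the 11 stranded libraries, mutants on the left. The sense gene had 70 or more counts in the mutants and 48 and 2 in glucose-starved wild type, while the antisense RNA had 283 to 409 in the mutants and 2504 and 373 in glucose-starved wild type.

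In the fit over all libraries, *SPCC191.10* rose in the mutants by 7.24 on the log2 scale in glucose (SE 0.93, edgeR adjusted p = 0.000749) and 6.62 in sucrose (SE 0.86, edgeR adjusted p = 0.00113). Wild type was at the floor, where a fitted fold change depends on the prior count, so direct count ratios are given too. Each sets 1 library against 1, and its interval covers counting error only, not the spread between cultures. Within batch B the disruption had 39.3 times the scaled count of wild type in glucose (95% interval 13.04 to 194) and 38.5 times in sucrose (12.8 to 190). Within unstranded batch A, 475 counts in the disruption stood against 1 in wild type in glucose, a ratio of 579 (103 to 22910) with both strands mixed. With stranded libraries alone the log2 fold change was 5.53 in glucose (edgeR adjusted p = 0.129) and 5.65 in sucrose (edgeR adjusted p = 0.13), neither of which was called. *SPNCRNA.1223* was higher by 7.78 in glucose (SE 0.62, edgeR adjusted p = 2.38e-05).

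In wild type, the fit called *SPCC191.10* higher in glucose-starved than in glucose medium by 5.10 (SE 1.1, edgeR adjusted p = 0.00126). That call rests on glucose-starved replicate 1, with 48 counts: without it the log2 fold change was 2.39 (edgeR adjusted p = 0.251), and replicate 2 had only 2 counts. In glucose-deficient medium the gene had 21 counts in the unstranded library and 0 in the stranded one, against 1 and 3 counts in glucose, and its fitted change was 2.45 (SE 1.2, edgeR adjusted p = 0.177). *SPNCRNA.1223* was higher in glucose-starved than in glucose medium by 9.47 (SE 0.65, edgeR adjusted p = 5.18e-07). Against glucose-starved wild type, the mutants in glucose had more *SPCC191.10* (2.14, SE 0.65, edgeR adjusted p = 0.0118) and less *SPNCRNA.1223* (-1.69, SE 0.35, edgeR adjusted p = 0.00106). The *SPNCRNA.1223* levels overlapped, at 19.7 to 38.3 CPM in these mutants and 32.7 and 167.8 CPM in glucose-starved cells. Its log2 difference was -2.56 within batch B and -0.69 within batch C. The *SPCC191.10* call is lost without glucose-starved replicate 2 (1.15, edgeR adjusted p = 0.0719).

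The maltase gene *agl1* was highest in glucose-starved wild type. It lies on chromosome I from 2967916 to 2972064, minus strand. It had 1727 and 717.3 CPM in glucose-starved and 95.2 and 383.7 CPM in glucose-deficient wild type, against 21.5 and 16.2 CPM in glucose. The media did not overlap. Its log2 fold change was 5.87 in glucose-starved cells (SE 0.87, edgeR adjusted p = 0.000108), a 58.5-fold difference, and 3.68 in glucose-deficient cells (SE 0.81, edgeR adjusted p = 0.0108). The first was 4.98 without glucose-starved replicate 1. The second was 2.34 without glucose-deficient replicate 2 and 4.67 without replicate 1, and was not always called. Glucose-starved were above glucose-deficient cells by 2.19 (SE 0.75, edgeR adjusted p = 0.0255), a call that was lost without glucose-starved replicate 1 (1.52, edgeR adjusted p = 0.108) and without glucose-deficient replicate 1 (1.41, edgeR adjusted p = 0.15).

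In the *scr1* mutants, *agl1* was at an intermediate level and was not called in the main fit. In glucose it had 246.4 and 77.2 CPM in the deletion and 90.7 and 221.5 CPM in the disruption, against 21.5 and 16.2 CPM in wild type. In sucrose it had 146.1 and 84.4 CPM in the deletion and 185.6 and 115.7 CPM in the disruption, against 24.6 and 23.2 CPM in wild type. All 8 mutant libraries were above all 4 wild type libraries. The log2 fold changes were 3.02 in glucose (SE 0.72, edgeR adjusted p = 0.0504) and 2.49 in sucrose (SE 0.69, edgeR adjusted p = 0.0899), while DESeq2 with the same design gave adjusted p-values of 3.46e-05 and 0.0016. A fit of only the 2 groups compared also called both (edgeR adjusted p = 0.0195 and 0.000672). There batch C held only deletion libraries, so with the batch term the difference came from the disruption. With 1 library left out at a time, the glucose value ran from 2.49 to 3.53 and was called in 5 of 16 fits. The sucrose value ran from 1.91 to 2.79 and was called in 2 of 16.

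Mutant cells in glucose had less *agl1* than glucose-starved wild type by a log2 difference of -2.85 (SE 0.59, edgeR adjusted p = 0.00101), which was -2.09 without glucose-starved replicate 1 and -3.50 without replicate 2. Against glucose-deficient wild type the difference was -0.66 (95% interval -1.96 to 0.64, edgeR adjusted p = 0.488), with the mutants at 77.2 to 246.4 CPM and glucose-deficient cells at 95.2 and 383.7 CPM. In order of the mean *agl1* level, glucose-starved wild type came first (1222 ± 714 CPM, SD, n = 2), then glucose-deficient wild type (240 ± 204, n = 2), the mutants in glucose (159 ± 87.4, n = 4) and the mutants in sucrose (133 ± 43.2, n = 4), whose ranges overlapped one another, and last wild type in sucrose (23.9 ± 0.960, n = 2) and in glucose (18.8 ± 3.76, n = 2), which did not overlap but differed by less than the test could resolve (0.33, SE 0.70, edgeR adjusted p = 1).

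The transporter gene *sut1* rose with glucose starvation and was not called in the mutants. It lies on chromosome I from 3935124 to 3938149, plus strand. It had 678.7 and 701.4 CPM in glucose-starved and 70.9 and 91.3 CPM in glucose-deficient wild type, against 46.2 and 35.5 CPM in glucose. Replicates lay close together and no 2 of these media overlapped. The log2 fold change was 4.26 in glucose-starved cells (SE 0.24, edgeR adjusted p = 1.73e-07), 0.96 in glucose-deficient cells (SE 0.22, edgeR adjusted p = 0.0135, under the fold change minimum) and 3.30 between them (SE 0.23, edgeR adjusted p = 7.91e-07).

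In glucose, *sut1* had 29.7 and 28.7 CPM in the deletion and 46.0 and 28.7 CPM in the disruption, against 46.2 and 35.5 CPM in wild type. In sucrose, which the protein transports, it had 35.9 and 30.7 CPM in the deletion and 49.3 and 29.3 CPM in the disruption, against 40.5 and 29.4 CPM in wild type. Mutant and wild type overlapped in both sugars. The log2 fold change was -0.26 in glucose (95% interval -0.66 to 0.15, edgeR adjusted p = 0.574) and 0.10 in sucrose (-0.31 to 0.52, edgeR adjusted p = 0.836), so both intervals leave out a log2 change of 1 in either direction. The mutants in glucose had less *sut1* than glucose-deficient wild type (-1.22, SE 0.18, edgeR adjusted p = 0.00151) and than glucose-starved wild type (-4.52, SE 0.18, edgeR adjusted p = 6.67e-09). Without glucose-deficient replicate 2 the first of these was -0.72 (edgeR adjusted p = 0.0197), under the fold change minimum.

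The other maltase gene, *mal1*, was called in no comparison. It lies on chromosome II from 151490 to 155630, plus strand, and the opposite strand of that stretch holds *urh1*, which encodes a uridine ribohydrolase, and the non-coding *SPNCRNA.1317* and *SPNCRNA.1318*. The 5 unstranded libraries had between 60.5 and 122 CPM and the 11 stranded libraries between 29.1 and 68.5 CPM, with glucose-starved replicate 1 the only stranded library above 45.0 CPM. In glucose it had 31.3 and 33.95 CPM in the deletion and 122 and 29.1 CPM in the disruption, against 60.5 and 39.5 CPM in wild type.

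Without Scr1 the *mal1* log2 fold change was 0.42 in glucose (95% interval -0.31 to 1.14, edgeR adjusted p = 0.612) and 0.31 in sucrose (-0.42 to 1.03, edgeR adjusted p = 0.695). In unstranded batch A the glucose difference was 1.01 and in stranded batch B it was -0.44. In glucose-starved wild type it was 68.5 and 29.1 CPM, against 60.5 and 39.5 CPM in glucose, and the fitted log2 change was 0.73 (SE 0.37, edgeR adjusted p = 0.101). Without glucose-starved replicate 2 that value was 1.089 (edgeR adjusted p = 0.022), which would be called. On the opposite strand, *SPNCRNA.1318* was higher in glucose-starved than in glucose medium by 4.23 (SE 0.45, edgeR adjusted p = 8.7e-06) and *urh1* by 1.35 (SE 0.23, edgeR adjusted p = 0.00032). *SPNCRNA.1318* was also higher in glucose-deficient medium (1.98, SE 0.41, edgeR adjusted p = 0.00799). In the mutants it was called in glucose (1.86, SE 0.38, edgeR adjusted p = 0.0224) but not in sucrose (1.52, edgeR adjusted p = 0.0579). *urh1* was not called in the mutants in glucose (0.67, edgeR adjusted p = 0.12). The part of these in *mal1* counts of unstranded libraries was not tested.

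**Figure D4:**
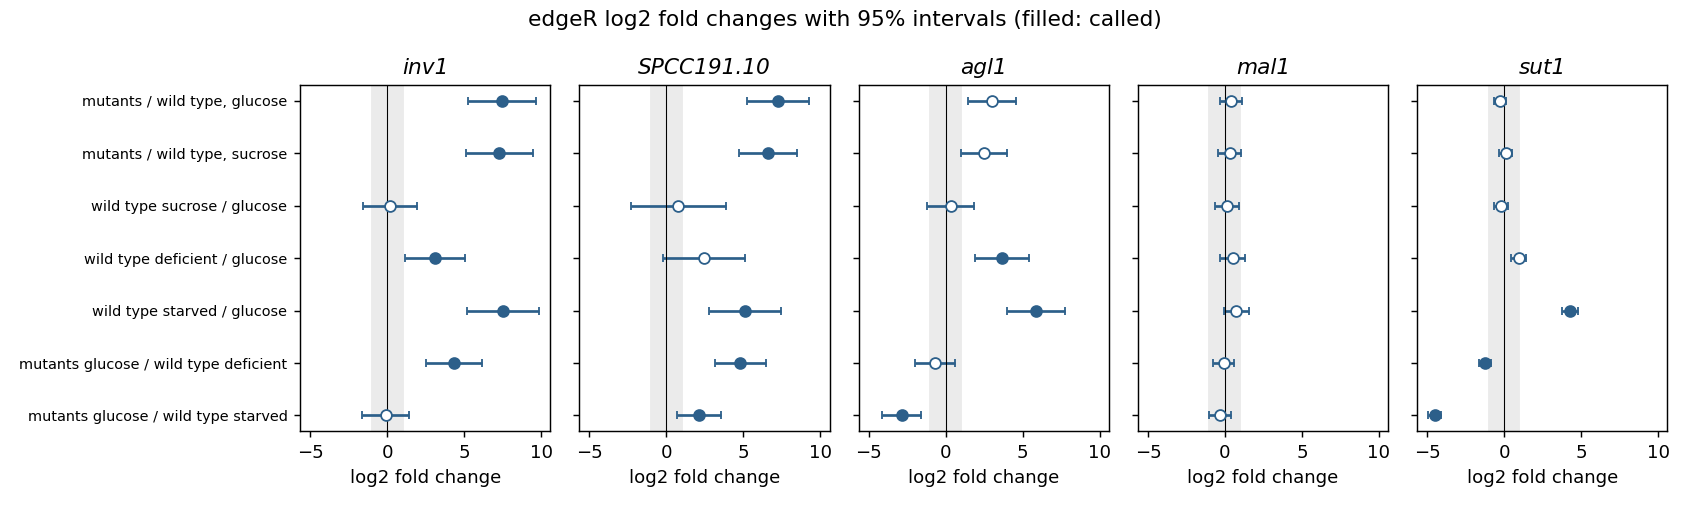
edgeR log2 fold changes with 95% intervals of the 5 genes in 7 comparisons, the group named first over the one named second; filled points were called and the grey band spans -1 to 1. The *inv1* estimate was 7.45 in the mutants in glucose and 7.53 in glucose-starved wild type, whereas *sut1* had 4.26 in glucose-starved wild type and -0.26 in the mutants in glucose.

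Counted over the 5 genes, 2 were higher and 0 lower in the mutants than in wild type in glucose, with a median log2 fold change of 3.02, and 1.84% of all features were called there, with a median of -0.01. In sucrose 2 were higher and 0 lower (median 2.49), against 1.57% of all features. These are *inv1* and *SPCC191.10* in both sugars. With the disruption alone as the mutant, *inv1* was at 7.49 in glucose (edgeR adjusted p = 0.0575), and with the deletion alone at 7.88 (edgeR adjusted p = 0.0691), neither called. *SPCC191.10* lost its call in glucose without wild type glucose replicate 1 (5.61, edgeR adjusted p = 0.0547) and in sucrose without wild type sucrose replicate 1 (5.72, edgeR adjusted p = 0.0707), and *inv1* lost its call in sucrose without wild type sucrose replicate 2 (6.71, edgeR adjusted p = 0.0696).

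Between glucose-deficient and glucose medium 2 of the 5 were higher and 0 lower, *inv1* and *agl1* (median 2.45), where 7.58% of all features were called. Both calls were lost without wild type glucose replicate 2 (2.07 and 3.20, edgeR adjusted p = 0.178 and 0.0953) and without glucose-deficient replicate 2 (1.99 and 2.34, edgeR adjusted p = 0.203 and 0.0775). The *agl1* call was also lost without wild type glucose replicate 1 (4.23, edgeR adjusted p = 0.0601), and the *inv1* call without either deletion library in glucose (3.02 and 3.11, edgeR adjusted p = 0.0573 and 0.051). Between glucose-starved and glucose medium 4 were higher and 0 lower (median 5.10), the exception being *mal1*. There 40.7% of all features were called, so that a call alone says little and the size of the change is the better guide.

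Between glucose-starved and glucose-deficient cells the same 4 were higher and 0 lower (median 2.65), beside 35.9% of all features. *SPCC191.10* (2.65, edgeR adjusted p = 0.0284) lost that call without glucose-starved replicate 1 (0.02, edgeR adjusted p = 0.998), without glucose-deficient replicate 2 (2.34, edgeR adjusted p = 0.0537) and without any 1 of the 4 disruption libraries (2.27 to 2.62, edgeR adjusted p = 0.0507 to 0.0657). In the mutants in glucose, 2 genes were higher and 1 lower than in glucose-deficient wild type, beside 4.6% of all features, and 1 was higher and 2 lower than in glucose-starved wild type, beside 41.4%. These comparisons share libraries with the ones above.

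Sucrose itself moved none of the 5 genes past the threshold. Between wild type in sucrose and in glucose 0 of 5 were called and 0 of 5 had an unadjusted p under 0.05 by edgeR, DESeq2 also called 0, and 0.0149% of all features were called. The *inv1* difference was 0.20 with a 95% interval of -1.53 to 1.94, which does not shut out a change of either sign. Between the mutants in sucrose and in glucose 0 of 5 were called (0 at an unadjusted p under 0.05, 0 by DESeq2), with 0% of all features called and 108 features at an unadjusted p under 0.05 by edgeR. *inv1* differed there by 0.03 (95% interval -1.15 to 1.20). The effect of the mutation differed between sucrose and glucose for 0 of 5 by edgeR's interaction test (0 at an unadjusted p under 0.05, 0 by DESeq2) and for 0.0149% of all features.

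The deletion and the disruption were compared in a fit with 8 groups. In glucose 0 of 5 genes were called by edgeR and 0 by DESeq2, with 1 at an unadjusted p under 0.05, beside 0.658% of all features. In sucrose these numbers were 0, 0 and 1, beside 0.478% of all features. The 1 gene was *SPCC191.10*, higher in the deletion by 3.61 in glucose (95% interval 1.43 to 5.78, edgeR adjusted p = 0.112) and 3.83 in sucrose (1.68 to 5.99, edgeR adjusted p = 0.0966). Before the batch term the order was the other way, with 4.59 and 5.14 CPM in the deletion in glucose and 6.76 CPM in the stranded library of the disruption. All deletion libraries were in batch C and all disruption libraries in A and B, so the batch estimate rests on wild type in glucose-starved and glucose-deficient medium. Without either glucose-deficient library *SPCC191.10* was called in both sugars (3.55 in glucose, edgeR adjusted p = 0.0178, without either; 3.78 and 3.79 in sucrose, edgeR adjusted p = 0.0121 and 0.0122) and *inv1* in sucrose (2.66, edgeR adjusted p = 0.0484 and 0.0494).

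Per length, the members that were high reached unlike levels. In glucose-starved wild type *inv1* had 1516 and 288.1 RPKM (CPM per kilobase of exon), *agl1* 416.3 and 172.9, *sut1* 234.6 and 242.4, *mal1* 16.5 and 7.03 and *SPCC191.10* 3.54 and 0.193 RPKM. In glucose *mal1* at 14.6 and 9.54 RPKM and *sut1* at 15.96 and 12.3 RPKM were above *agl1* at 5.18 and 3.898 RPKM, and *inv1* at 9.46 and 1.55 RPKM overlapped with *agl1*. The order of these genes therefore differed between glucose and starvation.

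Over all 16 libraries, which share batches and media, Pearson's r of log2 CPM was 0.797 between *inv1* and *SPCC191.10*, 0.704 between *inv1* and *agl1*, 0.699 between *agl1* and *sut1* and 0.151 between *inv1* and *sut1*. *mal1* had r between -0.122 and 0.244 with the other members. All r values here include the 5 unstranded libraries, where counts of *mal1* and *SPCC191.10* mix both strands. The part of library type in these r values was not tested. The protein-coding genes most like each member, by r over the 16 libraries and as a description, were *SPCC1235.01* (0.947), *SPBPB7E8.02* (0.936) and *cgs2* (0.924), a cAMP phosphodiesterase gene, for *inv1*. For *agl1* they were *gld1* (0.948), a glycerol dehydrogenase gene, *isu1* (0.947), for iron-sulphur cluster assembly, and *mdh1* (0.946), a malate dehydrogenase gene. For *sut1* they were *SPBC11C11.06c* (0.985), *SPBC3H7.08c* (0.983) and *etr1* (0.983). For *SPCC191.10* they were *gdh1* (0.902), *cbf12* (0.867) and *thf1* (0.857). For *mal1* they were *SPAC2F3.07c* (0.937), *mug27* (0.926) and *SPACUNK4.20* (0.926), and the first of these, which lies antisense to *sut1*, had 34 to 89 counts in the 5 unstranded libraries and 0 to 6 in the 11 stranded ones.

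Neighbouring and overlapping features did not all follow the 5 genes. The non-coding *SPNCRNA.1224* shares 67 bases with the end of *inv1* on the same strand. It had 8.98 and 4.30 CPM in the deletion and 21.2 and 34.4 CPM in the disruption in glucose, against 6.28 and 0.459 CPM in wild type, which overlapped. Its log2 fold change was 3.75 in the mutants in glucose (SE 1.2, edgeR adjusted p = 0.128), not called, and 3.58 in glucose-starved wild type (SE 1.3, edgeR adjusted p = 0.0281), and reads in the shared bases count for both features. Beyond *SPCC191.10*, the glutathione transferase gene *gst1* was higher in the mutants in glucose by 1.46 (SE 0.19, edgeR adjusted p = 0.000749) and lower in glucose-starved wild type by -1.15 (SE 0.23, edgeR adjusted p = 0.00105). On the other side of *inv1*, *bdf1*, for a bromodomain protein, was at -0.12 in the mutants (edgeR adjusted p = 0.734). The hexose transporter gene *ght4* begins 120 bases after *mal1* on the same strand. It rose in the mutants in glucose by 3.91 (SE 0.21, edgeR adjusted p = 1.31e-06) and in glucose-starved wild type by 4.92 (SE 0.23, edgeR adjusted p = 5.53e-08), where *mal1* had 0.42 and 0.73. The gene on the other side of *mal1*, *thi7*, was at 0.14 in the mutants (edgeR adjusted p = 0.768) and fell by 1.33 in glucose-starved wild type (SE 0.19, edgeR adjusted p = 8.77e-05).

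Around *agl1* and *sut1*, no overlapping or flanking feature was called in the mutants in glucose. Neighbours of *agl1*, *pdr1* and *mfc1*, were at -0.33 and -0.19 in the mutants (edgeR adjusted p = 0.533 and 0.84), while in glucose-starved wild type *mfc1* rose by 1.71 (SE 0.36, edgeR adjusted p = 0.00136) and *pdr1* was at 0.47 (edgeR adjusted p = 0.142). The non-coding *SPNCRNA.866*, which shares 67 bases with the 5′ end of *agl1* on the same strand, was at 0.01 in the mutants (edgeR adjusted p = 0.993) and rose by 1.67 in glucose-starved cells (SE 0.38, edgeR adjusted p = 0.0024). Opposite *sut1*, *SPNCRNA.949* was at 0.03 in the mutants (edgeR adjusted p = 0.981) and rose by 1.15 in glucose-starved cells (SE 0.30, edgeR adjusted p = 0.00534). *SPAC2F3.07c*, also opposite *sut1*, was at 0.98 in the mutants (edgeR adjusted p = 0.546) and was called in glucose-starved cells (5.36, SE 1.1, edgeR adjusted p = 0.0179), from at most 6 counts in any stranded library. The flanking genes *kap104* and *hem1* were at 0.31 and 0.43 in the mutants and at 0.70 and 0.82 in glucose-starved cells, none of them called. In glucose-starved cells 40.7% of all features were called.

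The other invertase gene, *inv2* (SPAC8E11.01c), which RefSeq annotates as a beta-fructofuranosidase, did not share the pattern of *inv1*. Its protein matched Inv1 at 200 of 487 aligned residues (41.1%). No 50-base stretch of any of the 5 genes or of *inv2*, within RefSeq's gene bounds, occurred elsewhere in the genome. Parts of the counted features outside those bounds were not checked. *inv2* had 58.4 and 56.7 CPM in the deletion and 50.6 and 60.4 CPM in the disruption in glucose, against 43.5 and 54.1 CPM in wild type, which overlapped. Its log2 fold change was 0.20 in the mutants in glucose (SE 0.10, edgeR adjusted p = 0.378) and 0.74 in glucose-starved wild type (SE 0.12, edgeR adjusted p = 0.000186), under the fold change minimum. In wild type in glucose *inv2* was above *inv1* per length, at 18.8 and 23.3 RPKM against 9.46 and 1.55 RPKM.

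In a list of 13 genes for disaccharide and starch enzymes, *inv2* included, drawn up with earlier results known, 0 rose and 0 fell in the mutants in glucose or in sucrose, with medians of 0.17 and 0.07 (all features -0.01 in both), where 1.84% and 1.57% of all features were called. In glucose-starved wild type 6 of 13 rose and 0 fell relative to glucose (median 0.74, all features -0.02), where 40.7% of all features were called, so the count sets the list apart little. They were *SPAC4H3.03c*, for a glucan alpha-glucosidase (6.82, SE 0.51), the melibiase gene *mel1* (6.26, SE 0.53), the alpha-glucosidase gene *gto1* (4.27, SE 0.37), the trehalase gene *ntp1* (3.96, SE 0.43), the alpha-amylase gene *meu7* (2.71, SE 0.58) and *aah1*, of a family of amylase-like enzymes (2.09, SE 0.30). In glucose-deficient cells 4 of 13 rose and 0 fell (median 0.76, all features -0.03), beside 7.58% of all features called: *SPAC4H3.03c* (2.95, SE 0.46), *mel1* (2.77, SE 0.54), *gto2* (1.36, SE 0.36) and *aah1* (1.19, SE 0.30). *gto2* then fell by 2.14 in glucose-starved relative to glucose-deficient cells (SE 0.36, edgeR adjusted p = 0.000369), and 5 others of the list rose, beside 35.9% of all features called. Set directly against glucose-starved wild type, the mutants in glucose had 6 of 13 lower and 0 higher (median -0.54, all features 0.02), beside 41.4% of all features called.

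**Figure D5:**
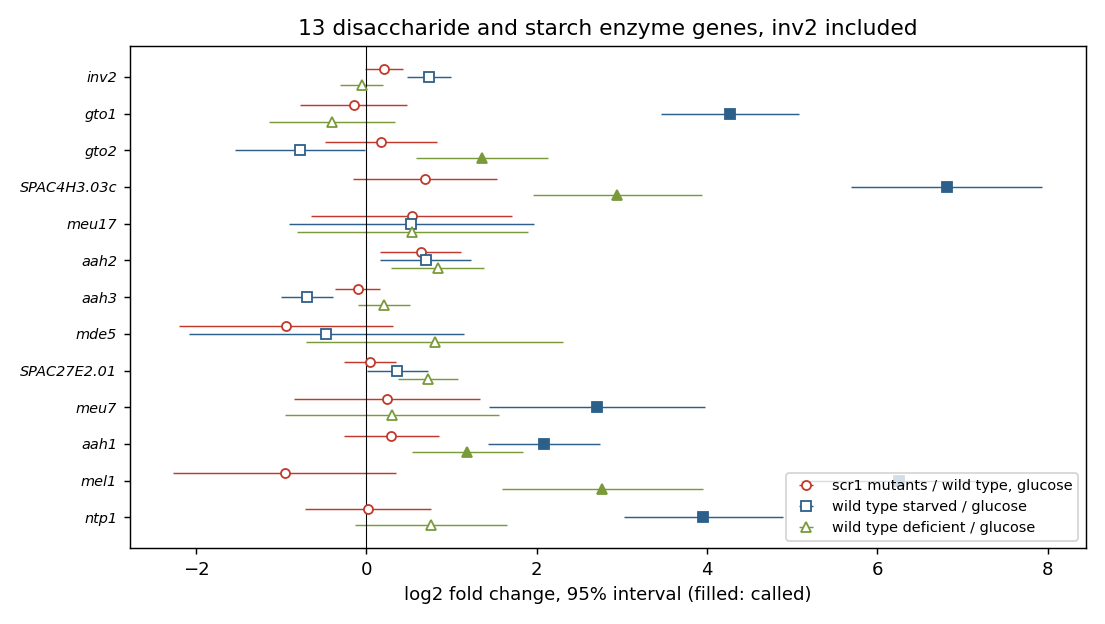
edgeR log2 fold changes with 95% intervals of 13 disaccharide and starch enzyme genes, *inv2* included, in the *scr1* mutants against wild type in glucose (red), in glucose-starved against glucose medium (blue) and in glucose-deficient against glucose medium (green); filled symbols were called. None was called in the mutants, and *SPAC4H3.03c* and *mel1* had the largest values in glucose-starved wild type, 6.82 and 6.26.

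Of 14 genes for regulators of invertase and of glucose repression, 2 rose and 0 fell in the mutants in glucose (median 0.40, all features -0.01; 1.84% of all features called), and the same numbers held in sucrose (median 0.39; 1.57% called). They were *rsv1*, for a zinc finger repressor (4.58 in glucose, SE 0.41, and 4.31 in sucrose, SE 0.40), and *cgs2* (1.21 and 1.22, SE 0.12 each). In glucose-starved wild type 7 of 14 rose and 0 fell (median 1.08), where 40.7% of all features were called: *rsv1* (6.61), the protein kinase A genes *cgs1* (4.11) and *pka1* (3.51), *rst2*, for the activator (2.22), the AMP-activated kinase genes *ssp2* (1.60) and *amk2* (1.57), and *cgs2* (1.40). In glucose-deficient cells only *rsv1* of the 14 was called, at 3.61 (SE 0.43, edgeR adjusted p = 0.00047), beside 7.58% of all features.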

How the data were processed

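RNA was sequenced after ribosomal RNA depletion. Per the labels and the study's methods, the authors trimmed reads with cutadapt 1.9.1, aligned them with TopHat2 2.1.1 to ASM294v2.25 and counted them on features with featureCounts 1.5.2, so that a read counts for all features that it overlaps and all sites where it maps, with strand used for stranded libraries. The deposited values are these counts, without normalization. With overlapping reads counted on every feature, a gene and its antisense partner cannot be told apart in the unstranded batch.

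Counts of 16 libraries were analysed with edgeR 4.0.16 in R 4.3.3: TMM scaling, filterByExpr with a minimum count of 10 (6691 of 7019 features tested), and a quasi-likelihood fit of 6 groups with batch as a term (8 residual degrees of freedom). Another fit kept the mutants apart (8 groups, 6 residual degrees of freedom). The test was checked on simulated counts, drawn with the same spread setting for all genes and no batch effect. That check does not cover genes as variable between replicates as *inv1*, or batch effects. Standard errors are the log2 fold change over the square root of F. RPKM uses the table's exon length, and correlations use log2 CPM with a prior count of 2. Ratios and shares carry 95% exact intervals for counting error. The 5 genes, the gene lists and the comparisons were chosen with earlier results of these data known. Named are all 5 genes, *scr1*, features that overlap the 5 genes, the nearest protein-coding gene on each side, the 3 most correlated genes of each, and called genes of the lists. *inv2*, which that rule names only where called, was described after its values had been seen.

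Gene symbols, promoters and products come from RefSeq ASM294v3 (Biopython 1.88, Python 3.11.15), whose gene ends match at least 1 end of the counted feature for 99.6%, 99.5% and 99.3% of genes on chromosomes I, II and III. Alternatives were DESeq2 1.42.0, DESeq2 size factors, library totals, no filter, no batch term, the replicate as a block, only the groups compared, stranded libraries, each mutant alone, no fold change minimum, and leaving out each library. One stretch before *agl1* is not reported here.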

Additional observations from a re-analysis of the deposited data

Results flagged for a closer look

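Among the 4 mutant libraries of a medium, the unstranded disruption library stood far from the other 3 for 3 of the genes. In glucose it had 28.0 CPM of *SPCC191.10*, against 4.59 to 6.76 CPM in the others, 122 CPM of *mal1*, against 29.1 to 33.95, and 46.0 CPM of *sut1*, against 28.7 to 29.7. In sucrose it had 28.3 CPM of *SPCC191.10*, against 5.61 to 7.09, and 118 CPM of *mal1*, against 30.9 to 37.1. By the criterion used, Dixon's at the 95% level, chance would single out about 1 group in 20, and 5 of 10 groups examined (5 genes in 2 media) were singled out. Each of these genes has a feature on its opposite strand, and the library type was not separated from the batch.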

How the results depend on the processing

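Across 1537 values of the 5 genes under 28 alternative settings, 1461 kept their side of the threshold, 51 calls were lost and 25 gained, and no called value changed sign; 90 values that were past the threshold under neither setting did. The number of the 5 genes called was within 1.5 times the main number for most settings, with these exceptions. In the mutants against wild type it was 1 in glucose and 1 in sucrose, in place of 2, with no batch term, with the replicate as a block, with stranded libraries alone, with the disruption alone and with the deletion alone. Between glucose-deficient and glucose medium it was 1 with no batch term and 0 with only these groups fitted and no batch term, in place of 2. Between glucose-starved and glucose-deficient medium it was 1 with only these groups fitted and no batch term, and 2 with stranded libraries alone, in place of 4. Against glucose-deficient wild type it was 0 with the disruption alone, in place of 3. Leaving out 1 library at a time gave 1 to 3 genes in the mutants against wild type in either sugar, 0 to 3 between glucose-deficient and glucose, 2 to 4 between glucose-starved and glucose-deficient medium, 0 to 1 between the deletion and the disruption in glucose and 0 to 2 in sucrose; the cause of these shifts was not tested.

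Replicate numbers are shared between groups, with 2 pairs each, and match the batches for some groups only: both deletion replicates are in batch C, and glucose-starved replicate 1 is in batch B with replicate 2 of other groups. Deviations of same-numbered libraries correlated at 0.93 between the disruption and wild type in glucose and at -0.02 between the deletion and wild type in glucose. With a replicate block as the only other term, *SPCC191.10* was at 6.30 in glucose (edgeR adjusted p = 0.0835) and 5.75 in sucrose (edgeR adjusted p = 0.114), and *inv1* was the 1 gene called. Depth limits *SPCC191.10*, which wild type held at 1 to 4 counts in glucose and sucrose.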
